A study of Meleagris gallopavo with 12 samples.

Results

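Photorefractory turkey hens were set against photosensitive hens, both on long days, by the transcripts of the premammillary nucleus. The comparison held 8 of the 12 RNA pools of the series, chosen by their titles: 4 long-day photorefractory pools (LDPR) and 4 long-day photosensitive pools (LDPS), while 4 short-day photosensitive pools (SDPS) linked them. LDPR hens were on long days and had passed through a whole reproductive cycle and moult. The labels do not state the hours of light in their schedule. LDPS hens had 10 long days of 16 h light and 8 h dark, and SDPS hens were held at 6 h light and 18 h dark. All were adult females, and each pool combined the tissue of 6 hens, so the spread between single hens cannot be seen. LDPR and LDPS hens differed in photorefractoriness, in time on long days, and in having laid and moulted, and these cannot be told apart.

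Photorefractoriness is the state in which a bird that has spent a long time on long days no longer keeps its reproductive axis active, so that the gonads regress although the days remain long. The premammillary nucleus lies at the back of the avian hypothalamus. In the turkey it holds neurons that make both dopamine and melatonin, and these neurons are thought to take part in measuring day length. Hypothalamic peptides act on the pituitary and on gonadotropin-releasing hormone neurons. Among them, the peptide encoded by NPVF, gonadotropin-inhibitory hormone, restrains gonadotropin release in birds.

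RNA was hybridised to arrays of chicken oligonucleotides, with a pair of pools on each of 6 arrays in opposite dyes. LDPR pool 3 shared an array with LDPS pool 3, and LDPR pool 4 with LDPS pool 4. LDPS pools 1 and 2 shared arrays with SDPS pools 1 and 2, and LDPR pools 1 and 2 with SDPS pools 3 and 4. No SDPS pool was paired with both groups, so differences between SDPS pools enter any ratio taken through them. A log2 fold change below is therefore an estimate from both direct arrays and from the path through the SDPS pools, with a dye term. Direct ratios below have that dye term removed unless stated. The direct and the indirect path hold different pools. Levels are normalised log2 intensities of a pool. A level carries the brightness of the spot on its array and the dye, which the fold change does not, so the difference between mean levels and the fold change need not be equal. Median spot amplitudes ran from 92.65 to 276.5 over the 12 channels. In 11 channels 91.6% to 96.6% of probes were brighter than the 95th percentile of empty spots, but LDPR pool 2 stood apart at 79.3%. Without its array the log2 fold changes of the 101 genes and probes named by rule differed from those given below by a median of 0.036, and 5 of them moved by over 1.5 times, namely PITX1 (-0.23), VIP (-0.20), DIO2 (-0.06), POMC (0.03) and TH (-0.00077). The array of LDPR pool 3 and LDPS pool 3 was quantified later than the remaining 5.

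All 5 tested markers of dopamine-melatonin neurons were brighter than the empty-spot limit in all 12 channels, as were 15870 of the 18012 tested probes. TH makes the dopamine precursor, SLC18A2 loads monoamines into vesicles, GCH1 makes the cofactor of TH, ASMT makes melatonin and OPN4 is the photopigment melanopsin. Their log2 fold changes, LDPR over LDPS, ran from -0.20 for GCH1 to 0.12 for SLC18A2, and the summed intensity of the list was 3798 to 4938 in LDPR pools and 4329 to 5184 in LDPS pools. Thus these markers were detected in both groups, as most probes were, and their summed ranges overlapped.

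By limma, 3 of the 18012 tested probes (0.0167%) passed an adjusted p of 0.05 for LDPR against LDPS. GAL was the single named gene among them. At an unadjusted p under 0.05 there were 2499 probes (13.9%), of which 890 were higher in LDPR (4.94% of all probes) and 1609 lower (8.93%). The median log2 fold change of all probes was -0.01. Among the 5204 genes with a symbol, 347 were higher and 346 lower at that threshold, together 13.3%. Of these genes 2890 were positive, and their median was 0.02. All members of the gene lists below have a symbol. The 4 LDPR pools all lay above the 4 LDPS pools for 93 probes (0.516%) and all below them for 330 (1.83%). Except for GAL and 2 probes without a symbol, every gene below missed the adjusted threshold in this fit, and its unadjusted p is a description. The p-values rest on the spread of within-array ratios about the fit. For each probe that spread has 2 to 3 residual degrees of freedom, and limma adds 6.64 prior degrees of freedom drawn from all probes.

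GAL encodes galanin, a neuropeptide that modulates feeding, hormone secretion and the activity of reproductive neurons. Its level was 10.12, 10.29, 10.03 and 10.24 in LDPR pools, against 9.37, 9.43, 8.52 and 9.27 in LDPS pools. All LDPR pools were above all LDPS pools, and the lowest LDPS pool, pool 3, stood below the others. GAL averaged 10.17 ± 0.12 in LDPR and 9.15 ± 0.42 in LDPS (SD, n = 4 each), and it rose 2.28-fold (log2 fold change 1.19, SE 0.11, adjusted p = 0.0129 by limma). The ratio was 1.38 and 1.10 on the direct arrays and 1.10 along the path through SDPS pools, so pools that shared no array gave about the same size. SDPS pools had levels of 10.19, 10.56, 10.03 and 10.13, within or close to the LDPR range. Without the array of LDPR pool 2 the log2 fold change was 1.15 (adjusted p = 0.0332). The call was lost without the array of LDPS pool 1 (1.22, adjusted p = 0.106), of LDPR pool 3 and LDPS pool 3 (1.07, adjusted p = 0.592) or of LDPR pool 4 and LDPS pool 4 (1.26, adjusted p = 0.0852). In pooled tissue, fewer cells of a type and less RNA per cell cannot be told apart, here and below.

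**Figure D1:**
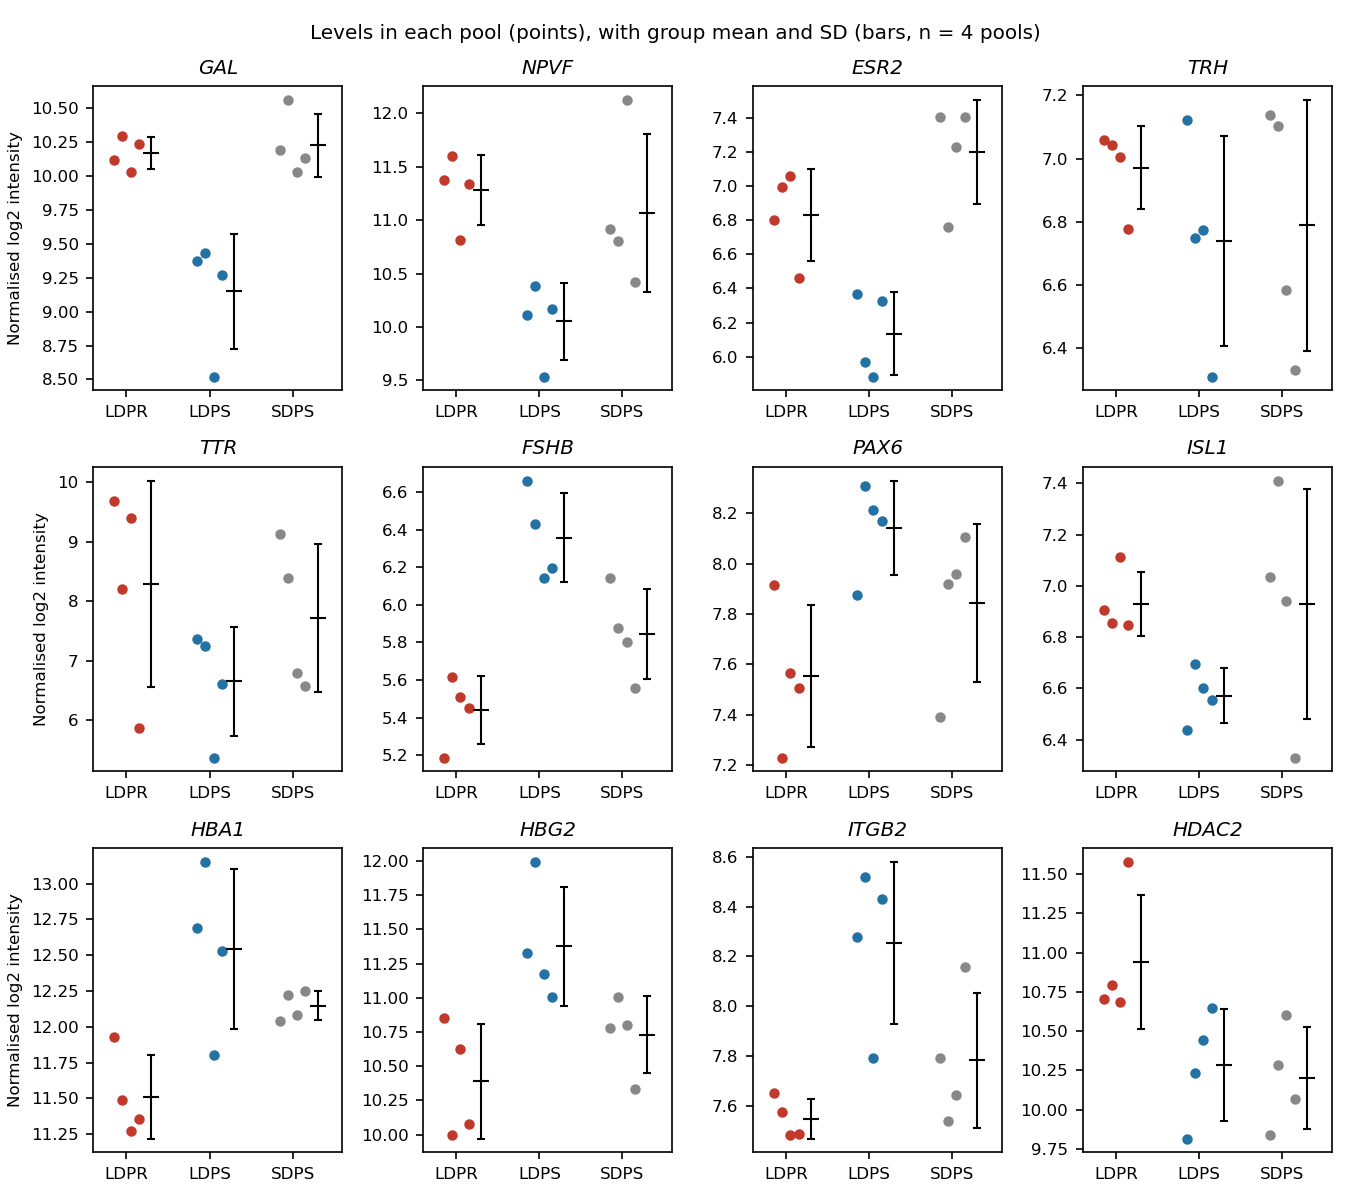
Normalised log2 intensity of 12 genes in each pool, with LDPR, LDPS and SDPS pools from left to right, and the mean and SD of the 4 pools beside them. The 4 LDPR pools of GAL (10.03 to 10.29) and of NPVF (10.81 to 11.60) lie above the 4 LDPS pools, those of FSHB (5.19 to 5.62) lie below, and those of TTR spread from 5.88 to 9.68.

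NPVF, the precursor of gonadotropin-inhibitory hormone, had levels of 11.38, 11.60, 10.81 and 11.34 in LDPR pools, against 10.11, 10.39, 9.53 and 10.17 in LDPS pools. The groups did not overlap, and pool 3 was the lowest of each. Its log2 fold change was 1.09 (SE 0.23, 2.13-fold, adjusted p = 0.148 by limma), from direct ratios of 1.65 and 0.80 and an indirect ratio of 0.83. With 1 array left out it ran from 0.72, without LDPR pool 3 and LDPS pool 3, to 1.33, without LDPR pool 1, and it was 0.94 without LDPR pool 2. With the channels fitted separately it was 1.11 (adjusted p = 0.0072 by limma). That setting called 648 probes, and ESR2, TTR, HBA1 and HBG2 passed there too. By limma NPVF did not pass without a dye term (adjusted p = 0.716) or by the path through SDPS pools alone (adjusted p = 0.691). In the authors' deposited table NPVF has values on 3 of the 6 arrays and on 0 of the direct arrays, and a fit to these gave 0.065. That fit had no residual degree of freedom, so its p would rest on the prior spread alone and is not given. The NPVF values in that table are 11.41 and 11.61 in LDPR pools 1 and 2, against 10.09 in LDPS pool 1. SDPS pools spread more widely for NPVF, with 10.92, 10.80, 12.13 and 10.42.

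Of the 27 tested precursors of neuropeptides and hormones, 14 had positive and 13 negative log2 fold changes, with a median of 0.03 (-0.01 over all probes). At an unadjusted p under 0.05, 5 were higher and 3 lower, which is 29.6% of the list against the background of 13.9%. Higher in LDPR beside GAL and NPVF were TRH, the thyrotropin-releasing hormone precursor, at 0.49 (SE 0.13), NTS, the neurotensin precursor, at 0.36 (SE 0.10), and RLN3, the relaxin 3 precursor, at 0.26. TRH levels were 7.06, 7.04, 7.01 and 6.78 in LDPR pools, against 7.12, 6.75, 6.77 and 6.31 in LDPS pools, so that LDPS pool 1 lay above the LDPR range. Lower in LDPR were FSHB at -0.73 (SE 0.12), UTS2, the urotensin 2 precursor, at -0.59, and IAPP, the amylin precursor, at -0.33 (SE 0.10). VIP, a prolactin-releasing peptide in birds, was at -0.33 (SE 0.15) with an unadjusted p of 0.0533. VIP levels were 9.03, 8.53, 8.37 and 8.89 in LDPR pools, against 9.19, 9.75, 8.64 and 9.24 in LDPS pools. POMC, the precursor of melanocortins and beta-endorphin, was at 0.09 (SE 0.11), and its direct arrays lay on both sides of 0 (0.12 and -0.13).

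FSHB, the beta chain of follicle-stimulating hormone, is a product of pituitary gonadotropes. Its level was 5.19, 5.62, 5.51 and 5.45 in LDPR pools, against 6.66, 6.43, 6.15 and 6.19 in LDPS pools. The groups did not overlap, but the probe was dim, with 3 of 4 LDPR pools and 4 of 4 LDPS pools above the empty-spot limit. Direct ratios were -0.54 and -0.85 and the indirect ratio was -0.82, and without LDPR pool 2 the log2 fold change was -0.80. Of the 8 tested pituitary markers 2 were lower at an unadjusted p under 0.05, FSHB and the transcription factor gene PITX1 (-0.38). That is 25% of the list, while 8.93% of all probes were lower at that threshold. The summed intensity of the list was 7665 to 9283 in LDPR pools and 6459 to 8676 in LDPS pools. The growth hormone gene GH1 was at -0.12, the prolactin gene PRL at -0.18 and LHX3 at -0.06. The other 3 markers were positive, among them POMC at 0.09 and the receptor gene GHRHR at 0.17. The part of pituitary RNA in the FSHB values was not tested.

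On the receptor side, 38 peptide and hormone receptors were tested, 15 with positive and 23 with negative log2 fold changes (median -0.04). The prolactin receptor gene PRLR, at 0.24 (SE 0.10), was the single one with an unadjusted p under 0.05, 2.63% of the list against 13.9% of all probes. Among receptors for the peptides above, NPFFR1, a receptor of gonadotropin-inhibitory hormone, was at -0.07 and TRHR, the receptor of thyrotropin-releasing hormone, at -0.03. VIPR1, a receptor of vasoactive intestinal peptide, was at 0.31 without reaching that threshold. Of 8 genes of prohormone processing and secretory granules 6 were positive (median 0.08), and CPE, a carboxypeptidase that trims peptide hormones, was at 0.31 (SE 0.10).

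ESR2 encodes oestrogen receptor beta. Its level was 6.80, 7.00, 7.06 and 6.46 in LDPR pools, against 6.37, 5.97, 5.88 and 6.32 in LDPS pools, with no overlap. The gap between the lowest LDPR pool (6.46) and the highest LDPS pool (6.37) was narrow. The log2 fold change was 0.60 (SE 0.16, adjusted p = 0.19 by limma), with direct ratios of 1.05 and 0.26 and an indirect ratio of 0.49, and it was 0.30 without LDPR pool 3 and LDPS pool 3. Of the 15 tested genes of steroid receptors and steroid synthesis, 1 was higher (ESR2) and 3 lower at an unadjusted p under 0.05, with a list median of -0.04. Together that is 26.7% of the list, against 13.9% of all probes. The lower members were CYP7B1, which hydroxylates neurosteroids, at -0.34, AKR1D1, a steroid 5-beta-reductase, at -0.27, and the coactivator NCOA2 at -0.36. NCOA2 was measured on 5 arrays, without the array of LDPR pool 3 and LDPS pool 3. Oestrogen receptor alpha (ESR1) was at 0.19 and aromatase (CYP19A1) at -0.26.

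Of 13 genes for monoamine and melatonin synthesis and transport, 7 were positive and 6 negative with a median of 0.00. DBH turns dopamine into noradrenaline. Its level was 6.87, 6.94, 7.46 and 6.89 in LDPR pools, against 7.79, 8.03, 7.55 and 7.53 in LDPS pools, with no overlap, and the log2 fold change was -0.42 (SE 0.11). QDPR, which recycles the cofactor of TH, was at 0.32 (SE 0.11). For TH the log2 fold change was 0.00 (SE 0.10), with an indirect ratio of 0.07 and direct ratios of -0.09 and 0.02. Its levels were 6.32, 6.27, 6.37 and 6.39 in LDPR pools, against 6.83, 6.92, 6.55 and 6.27 in LDPS pools, so mean levels (6.34 and 6.64) were further apart than ratios within arrays. Among 5 monoamine receptors the dopamine receptor gene DRD4 was at -0.29 (SE 0.12) and DRD2 at -0.08.

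None of the 11 tested circadian clock genes had an unadjusted p under 0.05, against 13.9% of all probes. Log2 fold changes of these clock genes ran from -0.18 for CLOCK to 0.21 for CRY1. Among 11 genes of opsins and phototransduction 8 were negative (median -0.08), and CNGA3, a channel of cone phototransduction, was at -0.24 (SE 0.11). Of 14 genes of the thyroid hormone pathway 8 were negative (median -0.02), and TTR and TRH had an unadjusted p under 0.05. That is 14.3% of the list, near the 13.9% of all probes. DIO2, which activates thyroid hormone and is induced by long days in the mediobasal hypothalamus of birds, was at -0.15 (SE 0.12), with direct ratios of -0.04 and 0.02 and an indirect ratio of -0.43. Its levels were 7.79, 7.71, 7.10 and 7.93 in LDPR pools, against 7.78, 8.20, 7.38 and 7.67 in LDPS pools, which overlapped.

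TTR, the thyroid hormone and retinol carrier transthyretin, varied widely from pool to pool. Its level was 9.68, 8.21, 9.40 and 5.88 in LDPR pools, against 7.37, 7.25, 5.37 and 6.61 in LDPS pools. LDPR pools 1, 2 and 3 lay above every LDPS pool, and LDPR pool 4 lay below 3 of them. The log2 fold change was 2.33 (SE 0.60, 5.04-fold, adjusted p = 0.185 by limma), from direct ratios of 3.13 and 0.16 and an indirect ratio of 3.71. Before removal of the dye term the direct ratios of TTR lay on both sides of 0 (4.02 and -0.73). The fold change of TTR was thus not of one size over the pools. The log2 fold change was 2.01 without LDPR pool 2, and 3.78 without LDPR pool 4 and LDPS pool 4, where it passed (adjusted p = 0.00427). SDPS pools were split as well. Those on the arrays of LDPS pools, pools 1 and 2, were at 9.13 and 8.39. Those on the arrays of LDPR pools, pools 3 and 4, were at 6.80 and 6.57. That split enters the indirect ratio and the fit without LDPR pool 4 and LDPS pool 4. TTR is made in large amounts by the choroid plexus, and of the other 4 tested markers of choroid plexus and ependyma TEKT1 was at 0.27, FOLR1 at 0.07, IGFBP2 at -0.07 and STRA6 at -0.42 (SE 0.11). The summed intensity of that list was 1932 to 2684 in LDPR pools and 2053 to 2733 in LDPS pools. The part of choroid plexus RNA in the TTR values was not tested.

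**Figure D2:**
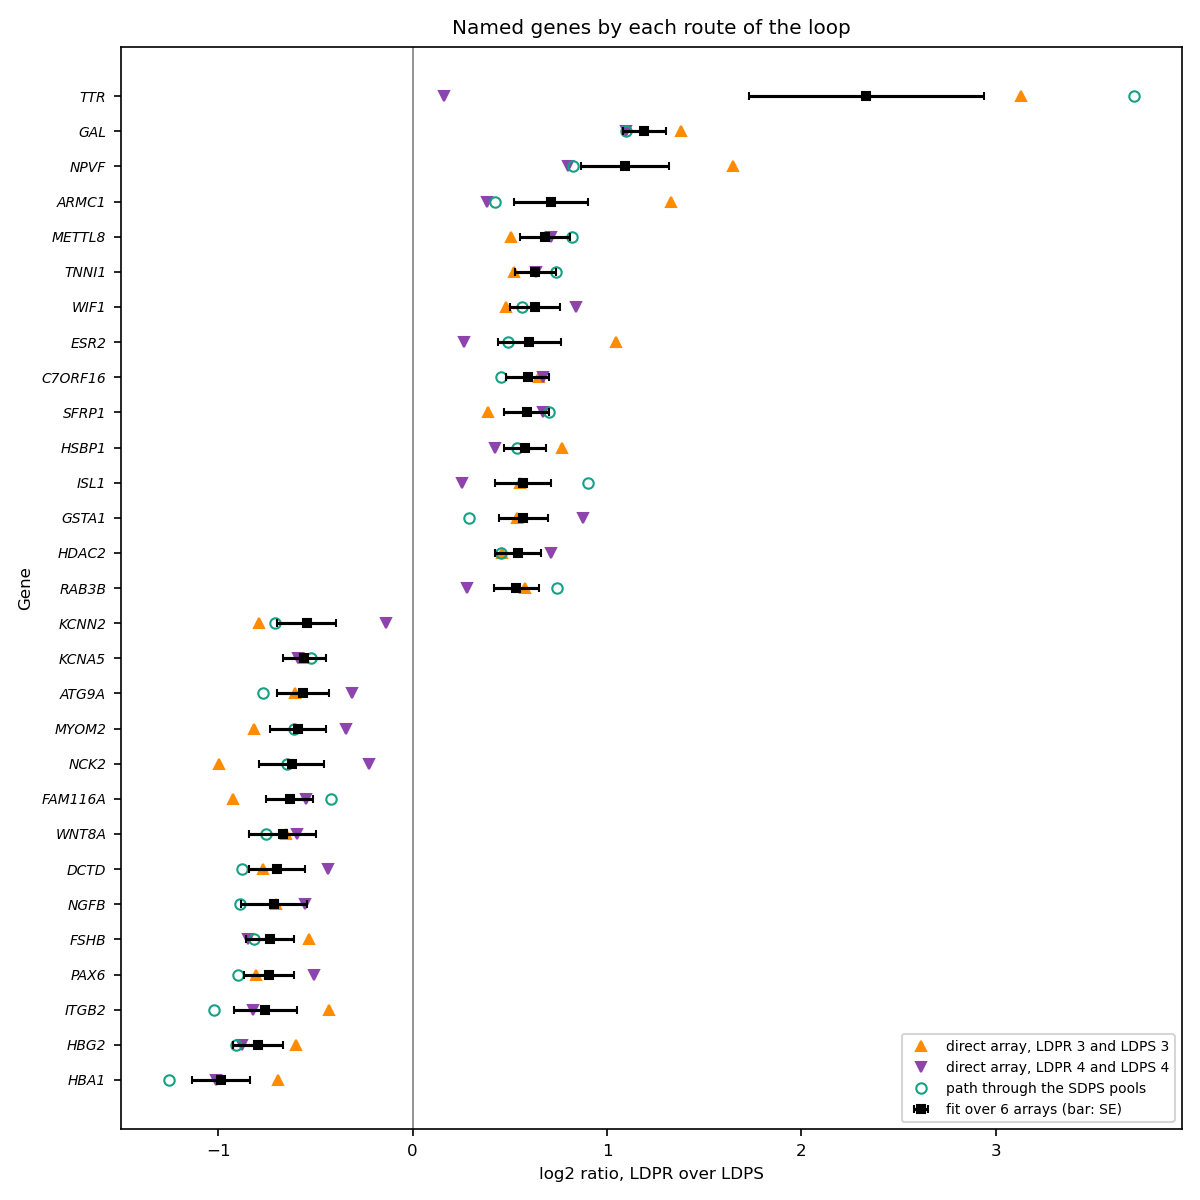
Log2 ratio, LDPR over LDPS, of the genes at either end of the comparison, from the fit over 6 arrays (squares, bars are SE), from each direct array with the dye term removed (triangles) and from the path through SDPS pools (circles). The 3 routes of GAL lie between 1.10 and 1.38, while those of TTR lie between 0.16 and 3.71.

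By the rule for named genes, genes were taken at an unadjusted p under 0.01 where both direct arrays and the indirect path lay on the same side of 0. That held for 81 genes higher and 110 lower in LDPR, of which the 15 at each end were considered. The side of a direct array was taken after removal of the dye term. Behind TTR, GAL and NPVF on the higher side came ARMC1 at 0.71 (SE 0.19), which was above the empty-spot limit in 3 LDPR and 2 LDPS pools, and METTL8, an RNA methyltransferase, at 0.68 (SE 0.13). WIF1 and SFRP1, both secreted inhibitors of Wnt signalling, were at 0.63 (SE 0.13) and 0.59 (SE 0.12). Levels of WIF1 were 8.44, 7.75, 8.34 and 8.81 in LDPR pools, against 8.01, 8.37, 8.06 and 7.76 in LDPS pools, and those of SFRP1 were 5.79, 6.46, 6.32 and 6.53 in LDPR pools, against 6.24, 5.49, 5.79 and 5.99 in LDPS pools. Both overlapped between groups. C7ORF16, the phosphatase inhibitor known as G-substrate, was at 0.59 (SE 0.11), the heat shock factor-binding gene HSBP1 at 0.58 (SE 0.11) and the glutathione transferase GSTA1 at 0.57 (SE 0.13). GSTA1 levels overlapped, at 10.69, 10.38, 10.96 and 13.10 in LDPR pools, against 10.45, 11.29, 10.62 and 12.03 in LDPS pools. The indirect ratio of GSTA1 was 0.29. RAB3B, a small GTPase of synaptic vesicles, was at 0.53 (SE 0.12).

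HDAC2 encodes a histone deacetylase. Its level was 10.70, 10.80, 10.68 and 11.58 in LDPR pools, against 9.82, 10.24, 10.44 and 10.65 in LDPS pools. The groups did not overlap, although LDPR pool 3 (10.68) and LDPS pool 4 (10.65) nearly met, and the log2 fold change was 0.54 (SE 0.12). Both pools of the brightest pair, LDPR pool 4 and LDPS pool 4, came from 1 array.

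On the lower side were HBA1 and HBG2, globin chains of red blood cells. HBA1 had levels of 11.93, 11.49, 11.27 and 11.36 in LDPR pools, against 12.69, 13.15, 11.81 and 12.53 in LDPS pools. Only LDPR pool 1 reached into the LDPS range, above LDPS pool 3, and the log2 fold change was -0.99 (SE 0.15, adjusted p = 0.11 by limma). HBG2 had levels of 10.85, 10.00, 10.63 and 10.07 in LDPR pools, against 11.33, 11.99, 11.17 and 11.01 in LDPS pools, with no overlap and a log2 fold change of -0.80 (SE 0.13). Both globin genes lay on the lower side by every route, which the rule that chose them required. The ratios were -0.69, -1.01 and -1.25 for HBA1 and -0.60, -0.88 and -0.91 for HBG2. HBA1 passed without LDPS pool 2 (-0.84, adjusted p = 0.028 by limma). All 5 tested markers of red blood cells were negative, with HBZ at -0.19, EPB41 at -0.07 and CA2 at -0.06. The summed intensity of the list was 4664 to 6530 in LDPR pools and 6811 to 14212 in LDPS pools, with no overlap, and 6930 to 7698 in SDPS pools. The amount of blood in the tissue was not measured, and its part in other genes was not tested.

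ITGB2, the beta chain of leukocyte integrins, had levels of 7.65, 7.58, 7.48 and 7.48 in LDPR pools, against 8.28, 8.52, 7.79 and 8.43 in LDPS pools. The groups did not overlap, and the log2 fold change was -0.76 (SE 0.16). Of the 19 tested markers of microglia and leukocytes 11 were positive, the median was 0.05, and CXCR4 (0.32) and CD3E (0.31) were higher at an unadjusted p under 0.05. With ITGB2 that is 15.8% of the list, against 13.9% of all probes. The summed intensity of the list was 5967 to 7217 in LDPR pools and 5697 to 6567 in LDPS pools.

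DCTD, a deaminase of nucleotide synthesis, had levels of 8.34, 8.51, 8.51 and 8.68 in LDPR pools, against 9.18, 9.01, 9.23 and 9.17 in LDPS pools. The gap of DCTD was wide for the spread within groups (SD 0.14 in LDPR and 0.10 in LDPS, n = 4 each), and its log2 fold change was -0.70 (SE 0.14). FAM116A, at -0.63 (SE 0.12), did not overlap either. NGFB, the nerve growth factor gene, was at -0.72 (SE 0.17), the Wnt ligand WNT8A at -0.67 (SE 0.17), the adaptor NCK2 at -0.62 (SE 0.17), the sarcomere gene MYOM2 at -0.59 (SE 0.14) and the autophagy gene ATG9A at -0.56 (SE 0.13). NCK2 was above the empty-spot limit in 2 of 4 LDPR pools, and its direct ratios before dye removal lay on both sides of 0 (-1.44 and 0.22). A second, dimmer probe of ATG9A was at -0.39 (SE 0.10).

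Homeobox and paired-box factors mark the identity of neurons and brain regions, and 34 were tested. The list was balanced, with 17 positive and 17 negative members (median -0.01). At an unadjusted p under 0.05, 4 were higher and 5 lower, which is 26.5% of the list against 13.9% of all probes. PAX6, a factor of forebrain patterning and neurogenesis, had levels of 7.91, 7.23, 7.56 and 7.51 in LDPR pools, against 7.88, 8.31, 8.22 and 8.17 in LDPS pools. LDPR pool 1 lay above LDPS pool 1 and the others were separate, with a log2 fold change of -0.74 (SE 0.13). ISL1, a LIM factor of hypothalamic and motor neurons, had levels of 6.91, 6.86, 7.11 and 6.85 in LDPR pools, against 6.44, 6.70, 6.60 and 6.56 in LDPS pools, with no overlap and a log2 fold change of 0.57 (SE 0.14). Without LDPR pool 2, PAX6 was at -0.63 and ISL1 at 0.43. The other higher members were MEIS2 (0.31), PAX7 (0.28) and TLX3 (0.23), and the other lower ones PITX1 (-0.38), NKX2-2 (-0.35), LHX8 (-0.32) and HOXB4 (-0.24).

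Voltage-gated channels set the excitability of neurons. Of 36 tested, 2 were higher and 5 lower at an unadjusted p under 0.05 (19.4% of the list), and the median was -0.04. The background was 4.94% and 8.93% of all probes, and 347 and 346 of the 5204 genes with a symbol. KCNA5, a delayed rectifier potassium channel, had levels of 9.17, 8.28, 9.07 and 8.62 in LDPR pools, against 9.25, 9.53, 9.23 and 9.62 in LDPS pools. The groups were separate by a small gap (9.17 and 9.23), and the log2 fold change was -0.56 (SE 0.11). Direct ratios of KCNA5 were -0.56 and -0.59 and the indirect ratio was -0.52. The calcium-activated potassium channel KCNN2 was at -0.55 (SE 0.15), KCNH6 at -0.48 (SE 0.13), the sodium channel subunit SCN4B at -0.36 (SE 0.11) and KCNC1 at -0.32 (SE 0.13), while the sodium channel SCN1A was at 0.28 (SE 0.11) and the potassium channel partner KCNIP4 at 0.22. LDPR and LDPS pools did not overlap for SCN4B and KCNC1. With KCNA5, LDPR pools lay below LDPS pools for 3 of the 36 genes, against 1.83% of all probes.

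Genes of transmitter receptors, synthesis and release were tested in 3 lists. The background for each was 13.9% of all probes at an unadjusted p under 0.05. Of 12 GABA and glutamate receptor genes (16.7% at that threshold), the AMPA receptor subunit GRIA2 was higher at 0.33 (SE 0.10) and GABRA6 lower at -0.33 (SE 0.14). Of 10 genes of GABA and glutamate synthesis and transport (10% at that threshold), GLUD1 was at 0.24 (SE 0.10). RAB3B was the single member of 12 synaptic vesicle genes with an unadjusted p under 0.05, 8.33% of the list. Of 13 immediate early genes, a class switched on quickly by neuronal activity, 12 were negative with a median of -0.09. DUSP1, at -0.40 (SE 0.11), was the single one at that threshold, 7.69% of the list against 13.9% of all probes. DUSP1 levels were 7.30, 7.69, 7.90 and 7.08 in LDPR pools, against 8.29, 8.14, 8.02 and 7.66 in LDPS pools. The median of that list was -0.20 on the array of LDPR pool 3, 0.00 on that of LDPR pool 4 and -0.21 by the indirect path.

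Axon growth and plasticity genes included 7 of 43 that were higher and 2 that were lower at an unadjusted p under 0.05 (median 0.04), together 20.9% of the list against 13.9% of all probes. RELN, the extracellular signal reelin, was at 0.53 (SE 0.10), with a narrow range over its routes: direct ratios of 0.48 and 0.62 and an indirect ratio of 0.50. STMN1 (0.32) and NRCAM (0.30) were also higher, and NGFB and CNTN4 (-0.40) were lower. Of 3 further, dimmer CNTN4 probes, 1 was at -0.31 and the others at -0.02 and 0.05. Of 34 extracellular matrix genes, 4 were lower and 0 higher at that threshold, namely HAPLN1 (-0.42), MATN1 (-0.35), COL6A1 (-0.34) and LAMA1 (-0.25), and the list median was -0.05. That is 11.8% of the list, against 13.9% of all probes. Second probes disagreed for COL6A1 (-0.03) and in part for LAMA1 (-0.37 and 0.09). Of 23 genes of muscle and contractile proteins 3 were higher, TNNI1 (0.63), TNNT2 (0.43) and TPM1 (0.31), and CASQ2 (-0.44) was lower. Together that is 17.4% of the list, against 13.9% of all probes.

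Chaperones assist protein folding. Of 23 tested chaperones and folding enzymes of the endoplasmic reticulum, where peptide precursors are folded, 19 were positive with a median of 0.13. At an unadjusted p under 0.05, 5 were higher (21.7% of the list) and 0 lower. The background on the higher side was 4.94% of all probes and 347 of the 5204 genes with a symbol. HSPA5, the main chaperone of that compartment, had levels of 10.62, 10.62, 10.73 and 9.97 in LDPR pools, against 10.22, 9.96, 10.23 and 9.71 in LDPS pools. LDPR pool 4 lay within the LDPS range and the other LDPR pools above it, and the log2 fold change was 0.38 (SE 0.12). HSP90B1 was at 0.32 (SE 0.10), CANX, a lectin chaperone, at 0.28 (SE 0.12), ERP29 at 0.27 (SE 0.11) and DNAJB9 at 0.26 (SE 0.11).

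Of 30 cytosolic chaperones 25 were positive with a median of 0.11. At that threshold 7 were higher (23.3% of the list) and 0 lower. The higher ones included HSPA14 (0.33), HSP70 (0.31), DNAJA1 (0.28), HSPA4 (0.27), DNAJA2 (0.26) and DNAJB6 (0.25). The lists differed by route. The median of the endoplasmic reticulum list was 0.16 on each direct array and 0.07 by the indirect path, and that of the cytosolic list was 0.19 and 0.16 on the direct arrays and 0.02 by the indirect path. Under median centring the medians were 0.11 and 0.05. No member of either list passed over all probes.

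**Figure D3:**
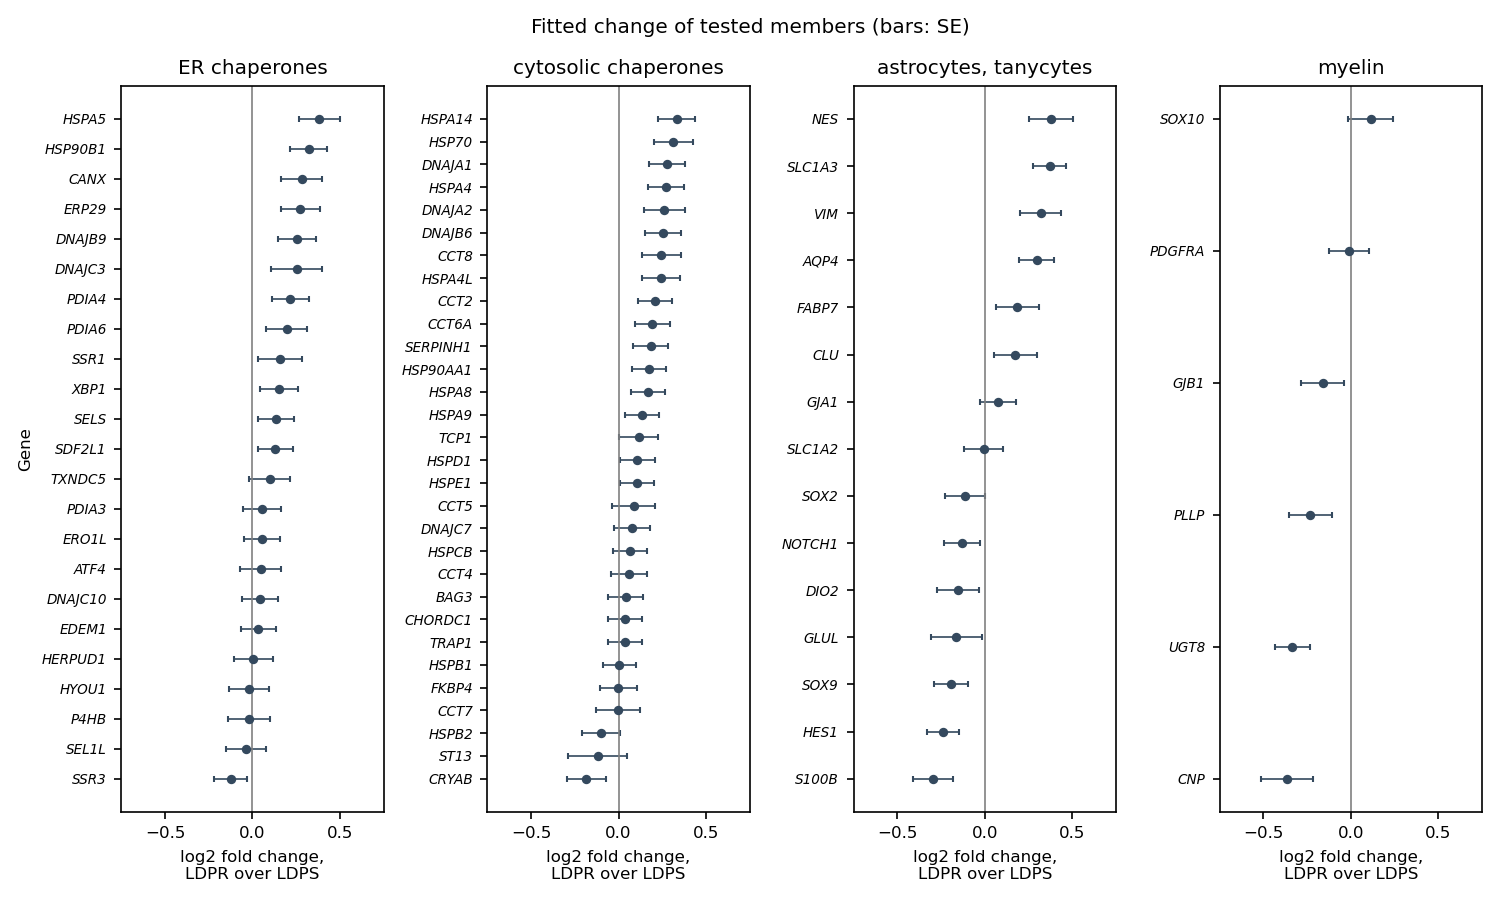
Fitted log2 fold change, LDPR over LDPS, with its SE, of the reported members of 4 gene lists. Of the chaperone lists 19 of 23 and 25 of 30 members lie above 0, the astrocyte list runs from -0.29 to 0.38, and 5 of the 6 myelin genes plotted lie below 0.

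Of 41 cytosolic ribosomal protein genes 34 were positive, with a median of 0.08 that became -0.04 under median centring. RPS3A (0.27) and RPL9 (0.24) were higher and RPS14 (-0.35) lower at an unadjusted p under 0.05. That is 7.32% of the list, against 13.9% of all probes. The 32 genes of the respiratory chain and ATP synthase had a median of -0.03 (3.1% at that threshold), and COX7A2L was at 0.26. The 23 proteasome subunit genes had a median of 0.06 (4.35% at that threshold), and PSMA2 was at 0.38 (SE 0.10). Of 17 genes of cholesterol synthesis and sterol handling, 12 were negative, 3 were lower and 0 higher at that threshold, which is 17.6% of the list against 13.9% of all probes. INSIG2 and INSIG1, which hold back sterol synthesis, were at -0.48 (SE 0.10) and -0.32 (SE 0.11). LSS, lanosterol synthase, was at -0.28 (SE 0.10), with LDPR pools at 7.92, 8.03, 7.93 and 7.98, all below LDPS pools at 8.45, 8.70, 8.04 and 8.28. Of 17 retinoid genes, TTR was higher and STRA6, the retinol transporter, lower, together 11.8% of the list against 13.9% of all probes.

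Among markers of other cells in the tissue, myelin genes lay mostly below 0. Of 7 tested, 6 were negative with a median of -0.23, against -0.01 over all probes. At an unadjusted p under 0.05, 3 were lower, which is 42.9% of the list. The background on the lower side was 8.93% of all probes and 346 of the 5204 genes with a symbol. UGT8, which makes myelin galactolipids, had levels of 10.09, 9.98, 10.33 and 9.95 in LDPR pools, against 10.71, 11.59, 10.81 and 10.08 in LDPS pools. Its log2 fold change was -0.34 (SE 0.10), and CNP was at -0.36 (SE 0.15). UGT8 overlapped between groups, since 1 LDPS pool lay below 2 LDPR pools, but the summed intensity of the list did not, at 4932 to 6793 in LDPR pools and 6929 to 10352 in LDPS pools. It was 6224 to 9021 in SDPS pools. Among the 34 lists, only those of myelin and of red blood cells had sums that did not overlap. A sum adds intensities off the log scale, so bright members weigh most. The median of the myelin list was -0.17 and -0.25 on the direct arrays, -0.27 by the indirect path and -0.20 without LDPR pool 2. The part of myelin content in other genes was not tested.

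Astrocyte and tanycyte markers pointed both ways. Of 15 tested, 4 were higher and 2 lower at an unadjusted p under 0.05, which is 40% of the list against 13.9% of all probes, with a median of -0.01. The glutamate transporter SLC1A3 (0.37, SE 0.09), the intermediate filament genes NES (0.38, SE 0.13) and VIM (0.32, SE 0.12) and the water channel AQP4 (0.30, SE 0.10) were higher. S100B (-0.29, SE 0.12) and HES1 (-0.24, SE 0.09) were lower. A second probe of NES was at -0.10 (SE 0.11), so the NES probes disagreed, and a second HES1 probe was at -0.21. The summed intensity of the list was 28364 to 32525 in LDPR pools and 30432 to 34405 in LDPS pools. Of 10 markers of endothelium and mural cells 6 were negative, with a median of -0.05. ANGPT2, the single one with an unadjusted p under 0.05 (10% of the list against 13.9% of all probes), was at 0.43 (SE 0.14). It was at 0.74 and 0.50 on the direct arrays and 0.06 by the indirect path. Of 9 general neuron markers 0 had an unadjusted p under 0.05, against 13.9% of all probes. The median of the neuron list was 0.01, and it became -0.06 under median centring.

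**Figure D4:**
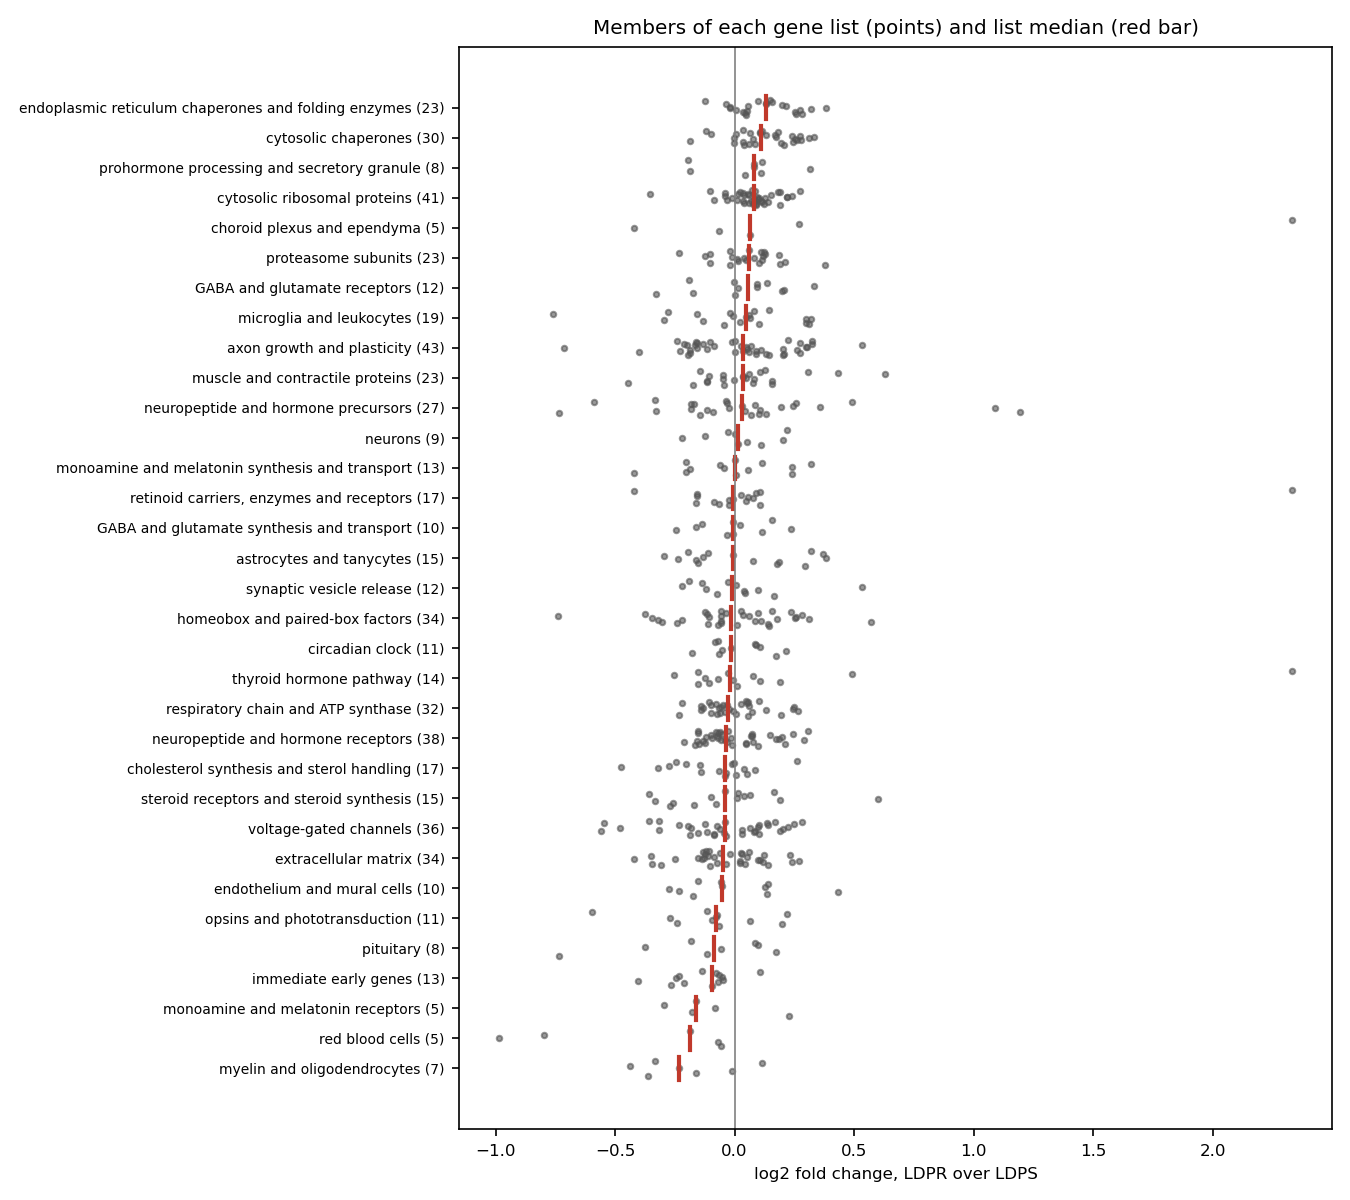
Log2 fold change, LDPR over LDPS, of every tested member (points) of 33 gene lists ordered by their median (red bars), with the number of members in brackets. Medians run from -0.23 for myelin to 0.13 for chaperones of the endoplasmic reticulum, and single members such as TTR (2.33, in 3 of the lists), GAL (1.19), NPVF (1.09) and HBA1 (-0.99) lie far from the median of their list.

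The 2 other called probes carry no symbol. RIGG02307, described as a cDNA clone, had levels of 10.85, 10.38, 10.69 and 11.11 in LDPR pools, against 10.04, 9.74, 9.54 and 10.38 in LDPS pools, and LDPR pool 2 just met LDPS pool 4. It rose by 0.92 on the log2 scale (SE 0.10, adjusted p = 0.0232 by limma), with 0.95, 0.92 and 0.89 by the 3 routes, and the call held without the array of LDPS pool 2 (adjusted p = 0.028). It was lost without any of the other 5 arrays (adjusted p = 0.0614 to 0.592) and under median centring (0.84, adjusted p = 0.0624). RIGG13871, which has no description, fell by 1.04 on the log2 scale (SE 0.10, adjusted p = 0.0129 by limma). This call rests on the dye term, since the direct ratios before its removal were -2.83 and 0.63, and after it -1.15 and -1.06. Its levels overlapped, at 5.60, 7.42, 4.86 and 7.46 in LDPR pools, against 5.84, 7.35, 7.70 and 6.84 in LDPS pools. It was brighter than the empty-spot limit in 3 LDPR pools, and with an offset of 50 it did not pass (-0.46, adjusted p = 0.0794 by limma). The call was also lost without the arrays of LDPS pool 1 (adjusted p = 0.106), LDPR pool 1 (0.0536), LDPR pool 3 and LDPS pool 3 (0.592) or LDPR pool 4 and LDPS pool 4 (0.103).

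The routes of the loop use different pools, so they show how far the comparison repeats over pools. Across 17570 probes, which are not independent replicates and share the SDPS arrays and their normalisation, the mean direct ratio and the indirect ratio correlated at Pearson's r = 0.35 and Spearman's rho = 0.34. Between both direct arrays, Pearson's r was -0.22 before the dye term was removed and 0.47 after. The dye term was fitted in part from these arrays, so the 0.47 is no separate check of them. Of the 200 probes with the highest mean direct ratio (median 0.51), 152 were positive by the indirect path, with a median of 0.14 there. Of the 200 with the lowest (median -0.56), 165 were negative, with a median of -0.37. Of all probes 48.6% were positive by the indirect path. Ratios at both ends were thus smaller in the pools that had not been used to rank them. GAL was at 1.10 by the indirect path, but the fit that called it includes that path, so its ratio there is no separate check.

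**Figure D5:**
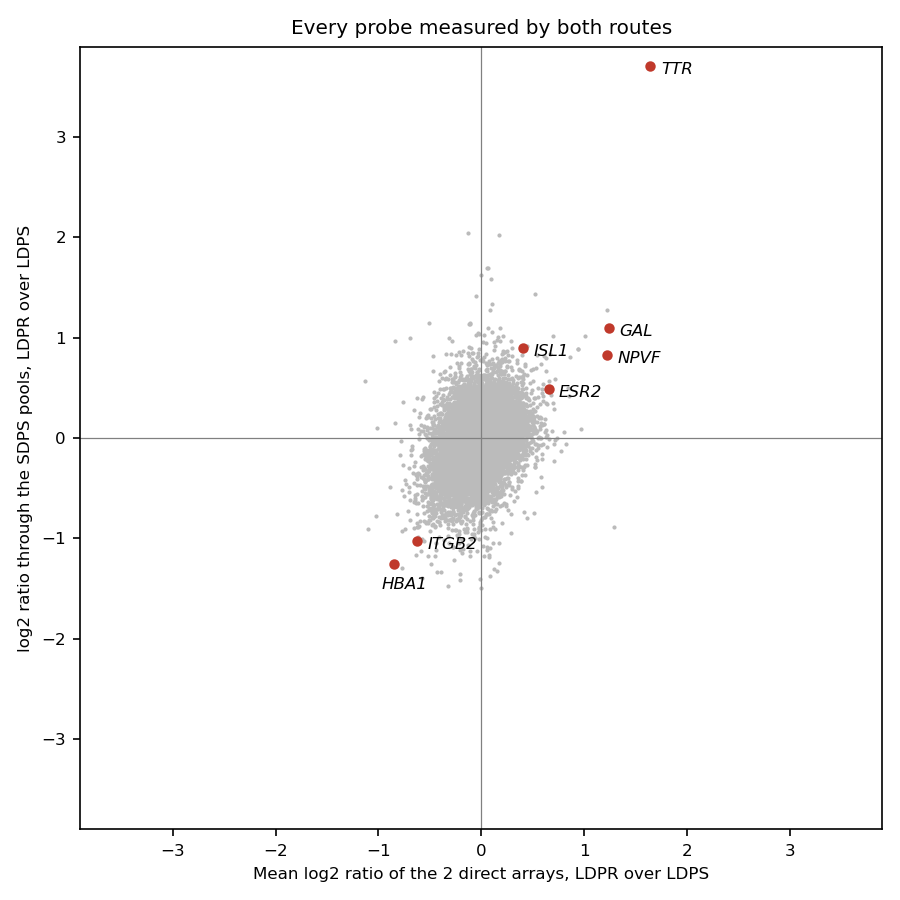
Mean log2 ratio of both direct arrays (x axis) against the log2 ratio through the SDPS pools (y axis), both LDPR over LDPS, for 17570 probes (grey), with 7 named genes in red. GAL (1.10 on the y axis), NPVF (0.83) and TTR (3.71) lie at the upper right, and HBA1 (-1.25) and ITGB2 (-1.02) at the lower left.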

How the data were processed

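Per the file headers, the authors used BlueFuse for Microarrays 3.6 (build 7145), which gave the deposited intensity as 1 amplitude per spot at 532 and 635 nm, with no separate background column. The deposited confidence score of each spot is the software's own grade, and spots under 0.1 were treated as missing. The values in the authors' deposited table are log2 intensities, closest to the sample's own channel in 12 of 12 columns. Its normalisation is not stated in the labels, and it served as an alternative. Both samples of an array were deposited with identical values, which were used once.

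Log2 ratios within arrays, corrected by loess with span 0.3 and 4 iterations, entered a limma fit over all 6 arrays (limma 3.58.1, R 4.3.3), with terms for LDPR over LDPS, SDPS over LDPS and dye. Probes on at least 5 arrays were tested, 18012 of 20460, with Benjamini-Hochberg adjustment over all of them, 2 to 3 residual and 6.64 prior degrees of freedom and a median SE of 0.11. The number of arrays limits the precision. The dye-corrected ratios of the direct arrays use the dye term of the whole fit. Where a gene had several probes, the brightest stood for it. Symbols are those of the chicken array design, and 3909 of 5204 occur in the turkey annotation.

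The named genes were every called probe, the 15 highest and 15 lowest symbols at an unadjusted p under 0.01 with all routes on 1 side, up to 6 members of each of 34 gene lists at an unadjusted p under 0.05, and GAL, NPVF, TTR, TH, VIP, POMC, ESR2, TRH and DIO2. Other list members are named with their values as examples chosen after those were seen. The pools, lists and rule were chosen with earlier results of these data known. Some further genes met the rule or belong to a list but are not reported here. Alternatives changed the dye term, the arrays used, normalisation, spot filter, offset and replicate block, used separate channels or the authors' table, or left out 1 array.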

Additional observations from a re-analysis of the deposited data

Results flagged for a closer look

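Of 202 groups of 4 pools of the named genes, 11 held a pool far from the other 3, with a gap, as a share of the group's range, above Dixon's 95% critical value for 4 samples. Chance gives this in about 1 of 20 groups. Values are normalised log2 intensities, which carry the brightness of the spot.

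In LDPR pools, HDAC2 was at 11.58 in pool 4, above the nearest pool at 10.8, and STMN1 was at 12.91 in pool 4, above 12.23. HSPA5 was at 9.968 in LDPR pool 4, below 10.62. DBH was at 7.459 in LDPR pool 3, the pool of that group nearest to the LDPS pools, and MYOM2 at 9.679 in LDPR pool 1. In LDPS pools, ERP29 was at 9.869 and SLC1A3 at 8.758 in pool 3, each below its nearest pool. AQP4 was at 8.575 in LDPS pool 2, NGFB at 7.838 and COL6A1 at 10.12 in LDPS pool 4, each above its nearest pool, and LHX8 was at 6.245 in LDPS pool 1, below it. LDPR pool 4 and LDPS pool 3 accounted for 5 of the 11.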

How the results depend on the processing

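The 3 calls became 0 without a dye term, with direct arrays only (which allow no dye term) and when no spot was filtered. They became 14 after scaling between arrays, 16 after print-tip loess, 8 in the authors' table and 648 with separate channels. Leaving out 1 array gave 0 to 6 calls. The path through SDPS called 4 probes, of which 0 were among the 3. Of probes at an unadjusted p under 0.05, 2499 became 1235 without a dye term, 466 with direct arrays, 1019 by the path and 1198 to 2593 with 1 array left out. Their share higher in LDPR was 35.6%, and 47.9% with direct arrays. Among named genes, 11 values changed sign. TH was at -0.034 with direct arrays, -0.029 with print-tip loess, -0.028 with scaling, -0.033 with separate channels and -0.072 with the replicate block, and ran from -0.019 to 0.064 with 1 array left out. POMC was at -0.0049 with direct arrays and DNAJA2 at -0.014 by the path. The causes were not tested. Of 1805 comparisons of a gene with an alternative, 1664 kept both direction and side of the threshold. Of the others 104 passed where the fit above did not, 41 of them with separate channels and 59 with the replicate block. In the authors' deposited table NPVF, with values on 3 arrays, was at 0.065 and GSTA1, on 5, at 0.36.

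With the replicate block, separate channels called 1323 probes, 4258 at an unadjusted p under 0.05. Deviations of same-numbered LDPR and LDPS pools correlated at -0.066, -0.13, 0.34 and 0.72 for numbers 1 to 4. The pairs at 0.34 and 0.72 shared arrays, so pairing and the shared array cannot be told apart there. The pairs at -0.066 and -0.13 shared no array, but they are too few to decide whether the numbers pair the pools.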

Other observations

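Several probes with a locus number but no symbol lay at the ends of the comparison. They fall outside the rule for named genes and were chosen after their values were seen, and their names are those of the array design. RIGG19500, described as similar to a stomatin-like protein, had levels of 6.48, 6.25, 6.33 and 6.20 in LDPR pools, against 6.03, 5.99, 5.17 and 5.48 in LDPS pools, with no overlap and a log2 fold change of 0.92 (SE 0.13). RIGG07799, similar to a synaptotagmin, a family of calcium sensors of vesicle release, was at 0.84 (SE 0.13), also with no overlap. RIGG03982, similar to a neuronal pentraxin, a secreted organiser of synapses, was at 0.67 (SE 0.12). None passed the adjusted threshold by limma.

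On the lower side RIGG13952, similar to a C-myc promoter-binding protein, was at -0.99 (SE 0.15), with direct ratios of -0.70 and -1.03 and an indirect ratio of -1.25. HBA1 had -0.69, -1.01 and -1.25 by the same routes. RIGG13952 levels were 9.46, 9.07, 8.88 and 9.06 in LDPR pools, against 10.14, 10.67, 9.41 and 10.26 in LDPS pools, and the highest and lowest pool of each group were those of HBA1. RIGG11974, similar to a developing brain homeobox factor, was at -0.64 (SE 0.10). As with RIGG13871, its direct ratios before dye removal lay on both sides of 0 (-2.35 and 0.94).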
